A study of Sus scrofa with 40 samples.

Results

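Genes of lipid storage and cholesterol synthesis were followed in mature oocytes of the pig, Sus scrofa, which rest at metaphase II until they are fertilised. The set was given as a list of 43 gene symbols, and a gene entered where a row of that symbol stood in both deposited count tables. This held for 41 of the 43, among 38794 rows that name a gene. MVD and DHCR7, for which no row was found, are not analysed here. By role, the list held 9 genes of fatty acid synthesis, elongation and desaturation, 5 of triglyceride assembly, 8 of droplet coats, lipases and fatty acid carriers, and 5 regulators. It also held 7 genes of the early cholesterol pathway, from acetyl-CoA to farnesyl diphosphate, and 9 of the squalene and sterol steps.

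Pig oocytes are rich in lipid droplets, in which triglycerides and sterol esters are stored under a coat of perilipins and from which lipases release fatty acids. Cholesterol is built from acetyl-CoA through mevalonate, farnesyl diphosphate, squalene and lanosterol. The transcription factor SREBP2 (gene SREBF2) raises the genes of this route when sterols are low, its relative SREBP1 (SREBF1) acts mainly on fatty acid synthesis, and INSIG1 holds both back in the endoplasmic reticulum when sterols are plentiful.

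All oocytes came from hybrid commercial pigs bred from Large White, Duroc and Berkshire and were labelled mtDNA deficient or mtDNA normal, where mtDNA is the mitochondrial genome. Titles of single oocytes carry the mark BCBneg where the state is deficient and BCBpos where it is normal, and titles of pools carry neg and pos, marks that the labels do not explain. Whether the libraries of a group came from separate animals is not stated there, and a p-value therefore covers only how much these libraries vary, which may be technical. Pools were 5 deficient (titles A1, A2, A3, B2 and B4) and 6 normal (A2, A3, A4, B1, B2 and B4), extracted with a column kit and amplified by the SPIA method of the Ovation kits. Single oocytes were 14 deficient and 15 normal, extracted in the tube and made into libraries with the SoLo kit and pig-specific depletion primers. For tests, counts of single oocytes were added up within state and leading title number. This gave 4 deficient sums (2, 2, 3 and 7 oocytes) and 3 normal sums (4, 4 and 7 oocytes). Single oocytes are dated 17 September (8 deficient, 9 normal) or 22 September (6 of each state). Sums of number 1 and 3 hold oocytes of 17 September only and those of number 2 of 22 September only, while those of number 4 mix both dates.

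Pools held 14480546 to 29538982 counts and single oocytes 706929 to 3067523. A row named LOC102158401 took 46.7% to 76.0% of the counts of a single oocyte, which leaves fewer counts for all other genes there. Levels are given as CPM, which scales each library by its total count in named rows, and log2 differences come from edgeR with TMM scaling, so that the CPM of a gene and its log2 difference can differ slightly in direction. Transcript lengths were not used, so no levels are compared between genes. Of 16 oocyte markers 13 averaged 10 CPM or more over the pools and 12 over the oocytes, with GDF9 at 869.4 CPM or more in each pool and 289.2 or more in each oocyte. Of 18 cumulus and granulosa markers with a row 2 (INHBA and VCAN) did so in pools, and FSHR, the granulosa receptor for follicle-stimulating hormone, was at most 1.29 CPM there. Among 5 adipocyte markers with a row, ADIPOQ, LEP and PCK1 had no count in any pool, and the list summed to at most 2.07 CPM per pool. That sum differed between the states, as given below.

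Many members were present at low level. In pools 21 members were counted in all 11 libraries, in single oocytes 16 were counted in all 29, and 14 members did both. These included ACACA, ELOVL5 and ELOVL6 of fatty acid synthesis, AGPAT1 of triglyceride assembly, the lipase PNPLA2, the regulators SREBF2, INSIG1 and PPARG, and FDFT1, SQLE, NSDHL and HSD17B7 of the sterol steps. A pool held counts for 26 (deficient A2) to 37 members, a deficient oocyte for 24 to 36 (median 32) and a normal oocyte for 21 to 34 (median 31).

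**Figure D1:**
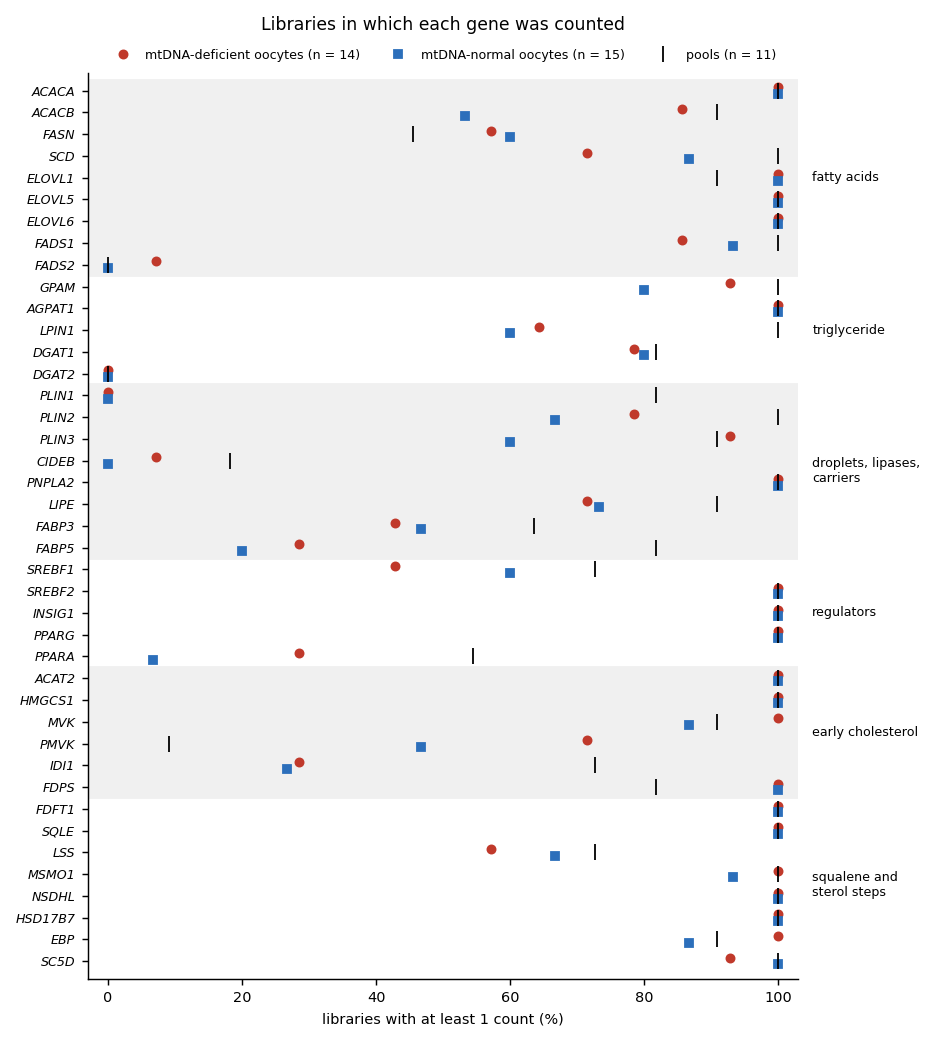
Percentage of libraries with at least 1 count (horizontal axis) for each of the 41 members (vertical axis, grouped by role): red circles, 14 deficient oocytes; blue squares, 15 normal oocytes; black ticks, 11 pools. FDPS and ELOVL1 were counted in all 29 oocytes but not in every pool, and PMVK in 1 of 11 pools.

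Some members were at 0 throughout a library type. DGAT2, an acyltransferase that completes triglycerides, had no count in any library, which allows a level of up to 0.0116 CPM over all pools and 0.0728 CPM over all single oocytes (3 counts of the total). FADS2, a desaturase of polyunsaturated fatty acids, was at 0 in all pools and had counts in 1 of 29 oocytes. PLIN1, the perilipin of fat cells, was at 0 in all 29 oocytes, which allows up to 10.3% of oocytes with a count, and reached at most 0.924 CPM in pools. These limits cover counting error only, since reads without molecular identifiers are not independent molecules. CIDEB, a protein that fuses droplets, was counted in 2 pools, at 2.06 CPM in normal A3 and 0.0465 CPM in deficient A1, and in 1 oocyte.

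The filter on low counts left out 11 of the 41 members in pools, namely FASN, FADS2, DGAT2, PLIN1, CIDEB, FABP3, SREBF1, PPARA, PMVK, IDI1 and LSS. In the single-oocyte sums it left out the same genes with FABP5 in place of LSS. PPARA, a nuclear receptor of fatty acid burning, was counted in 4 deficient and 1 normal oocytes, and IDI1, the isomerase before farnesyl diphosphate, in 4 of each state. PLIN3, another droplet coat protein, was counted in 13 of 14 deficient and 9 of 15 normal oocytes, and in 12 and 6 when each oocyte was thinned to 706929 counts. The difference between these shares was not tested. Over all genes, deficient oocytes also held more detected genes when thinned, 12059.3 ± 967 against 11455.5 ± 1167 in normal oocytes (mean ± SD, n = 14 and 15). The part of this in the PLIN3 shares was not tested.

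The spread within a library type was wide for most members. Among members counted in every library, the coefficient of variation (SD over mean CPM) had a median of 0.5 over pools, from 0.222 for ELOVL5 to 0.747 for LPIN1. Over single oocytes the median was 0.432, from 0.304 for PPARG to 0.605 for AGPAT1. The summed CPM of all members was 1282 to 2593 in deficient pools (median 2262) and 1240 to 3458 in normal pools (median 2526), so the groups overlapped over most of their range. In single oocytes it was 586.1 to 1527 in deficient cells (median 963) and 557.1 to 1387 in normal cells (median 912.8). FDFT1 alone made up 52.9% to 62.4% of this sum in pools and 22.4% to 40.7% in oocytes, so the sum is weighted towards that gene.

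The first comparison asked how the members differed between mtDNA-deficient and mtDNA-normal pools. No member passed the test: edgeR's quasi-likelihood test called 0 of 30 tested members at a Benjamini-Hochberg adjusted p under 0.05, and percent called over all 13540 genes tested was 0 as well. At an unadjusted p under 0.05 there were 2 members (6.67%), against 5.36% of all genes. The CPM of the groups overlapped for every tested member, while it did not for 0.598% of all genes. DESeq2 and limma-voom also called 0 members. With DESeq2, 3 of 30 members and 982 of all 13540 genes had an unadjusted p under 0.05. More members lay lower in deficient pools than higher, 22 against 8, with a median log2 difference of -0.29, where 50.2% of all genes lay lower and 49.8% higher, with a median of -0.0019. The range of the 30 was -1.33 to 0.78, and their median standard error was 0.47. In a pool, fewer cells of a kind and less RNA per cell cannot be told apart.

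The size of that lean depended on the libraries. With each of the 11 pools left out in turn, 20 to 24 members lay lower and the median stayed between -0.57 and -0.11. Without normal B2 the median was -0.11, without deficient A2 it was -0.13, without deficient A3 -0.19 and without normal B4 -0.20, and without deficient B2 it was -0.57. With the number of genes detected in each pool as a covariate the lean turned: 20 of 30 members then lay higher in deficient pools, with a median of 0.17. Deficient pools held 14207 to 18456 detected genes and normal pools 15057 to 19245. Within pools titled A the median was -0.16 (21 of 29 lower), and within those titled B -0.26 (22 of 34 lower).

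Among genes of fatty acid synthesis, 6 of 7 tested members lay lower in deficient pools, with a median log2 difference of -0.37. ACACA, the carboxylase that commits acetyl-CoA to fatty acid synthesis, stood at 142, 72.2, 59.8, 279 and 154 CPM in the deficient pools A1, A2, A3, B2 and B4. In normal pools it ranged from 57.8 to 349 CPM (median 201.2). The groups overlapped almost entirely, and the lowest normal pool, A3, lay below every deficient pool. The log2 difference was -0.37 (95% interval -1.13 to 0.39, edgeR adjusted p = 0.922). ACACB, the carboxylase isoform whose product restrains fatty acid burning, had the lowest value of all members at -1.33 (SE 0.78), on levels of 4.57 CPM or less. ELOVL5 and ELOVL6, which lengthen fatty acid chains, differed by 0.03 (95% interval -0.37 to 0.44) and -0.02 (-0.54 to 0.50).

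Of the triglyceride genes, 3 of 4 tested lay lower. AGPAT1, which makes phosphatidic acid on the way to triglycerides and phospholipids, had the smallest p of all members. Its level was 11.1, 2.35, 6.22, 8.05 and 7.79 CPM in deficient A1, A2, A3, B2 and B4, and 9.01 to 22.6 CPM in normal pools (median 14.4). The groups overlapped only through deficient A1, which lay above normal A2. The log2 difference was -1.02 (SE 0.35, 95% interval -1.76 to -0.28, edgeR p = 0.00969, adjusted p = 0.845). Over the 22 other settings it lay between -1.29 and -0.79, with an adjusted p of 0.245 to 0.999. GPAM, which adds the first acyl chain to glycerol phosphate, lay at -0.12 (SE 0.54) and DGAT1, which adds the last, at -0.68 (SE 1.10). LPIN1, a phosphatidate phosphatase, was the highest member at 0.78 (SE 0.64). In deficient pools it stood at 10.8, 0.8287, 0.5294, 9.767 and 10.12 CPM, against 1.29 to 5.88 CPM in normal pools (median 4.51). The deficient pools thus fell on both sides of the normal ones, A2 and A3 below all 6 and A1, B2 and B4 above all 6.

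Droplet and lipase genes lay lower in deficient pools in 4 of 5 tested members, without a call. PLIN2, the perilipin that coats droplets in most cells, was at 26.9, 10.22, 9.927, 43.33 and 33.48 CPM in the deficient pools and 17.7 to 35.2 CPM in normal pools (median 23.3). Deficient A2 and A3 lay below every normal pool and B2 above every one, and the log2 difference was 0.03 (95% interval -0.65 to 0.72). PNPLA2, the lipase that starts triglyceride breakdown, differed by -0.27 (SE 0.54), and LIPE, the hormone-sensitive lipase, by -0.84 (SE 0.75).

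The 3 tested regulators all lay lower in deficient pools, none past the threshold. PPARG, a nuclear receptor of lipid storage, was at 92.7, 57.5, 107, 135 and 73.5 CPM in deficient pools and 109 to 170 CPM in normal pools (median 129.8). All deficient pools except B2 lay below the lowest normal pool. The log2 difference was -0.42 (SE 0.20, 95% interval -0.84 to 0.0018, adjusted p = 0.921 by edgeR). SREBF2 was at 14.6, 3.31, 10.6, 14.8 and 16.2 CPM in deficient pools and 11.1 to 32.6 CPM in normal pools (median 19.5). Deficient A2 and A3 lay below every normal pool and the other 3 inside the normal range, and the log2 difference was -0.62 (SE 0.34). With genes detected as a covariate it was -0.31. INSIG1 differed by -0.32 (SE 0.39).

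**Figure D2:**
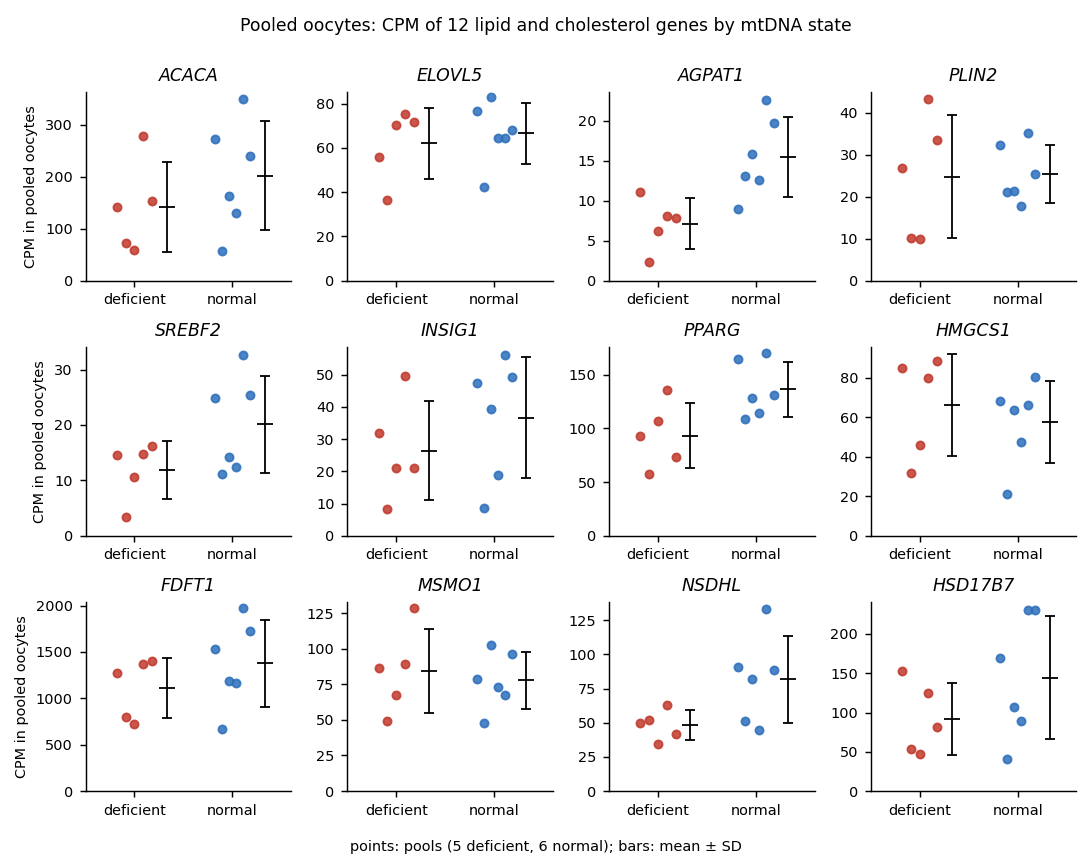
CPM (vertical axes, linear from 0) of 12 members in the pools by mtDNA state: points are pools (5 deficient, 6 normal), bars are the mean ± SD. The groups overlap in every panel, least for AGPAT1, where deficient A1 at 11.1 CPM and normal A2 at 9.01 CPM are the only pools out of order.

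Of the early cholesterol genes 3 of 4 tested lay higher in deficient pools (median 0.29), none past the threshold. HMGCS1, the synthase that makes HMG-CoA, was at 85.1, 31.6, 45.8, 80.1 and 88.7 CPM in deficient pools and 21.3 to 80.2 CPM in normal pools (median 64.9). The groups overlapped, with deficient A1 and B4 above every normal pool, and the log2 difference was 0.34 (95% interval -0.21 to 0.89). ACAT2, which condenses acetyl-CoA units, differed by 0.66 (SE 0.57). FDPS, which makes farnesyl diphosphate, differed by -0.87 (SE 1.14), on levels under 1.2 CPM in all pools except normal B2 at 4.43 CPM.

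Among the squalene and sterol steps 5 of 7 tested lay lower, with a median of -0.10. NSDHL, which works with MSMO1 and HSD17B7 in taking methyl groups off the sterol ring, was at 49.6, 52.1, 34.1, 62.9 and 41.4 CPM in deficient pools and 45.0 to 133 CPM in normal pools (median 85.3). Normal A3 and B1 lay within the deficient range and the other normal pools above it. The log2 difference was -0.58 (SE 0.24, 95% interval -1.10 to -0.07, edgeR p = 0.0289, adjusted p = 0.903). Its partners differed by -0.48 for HSD17B7 (SE 0.34) and 0.24 for MSMO1 (SE 0.21), so members of the same step lay on both sides of 0. FDFT1, the squalene synthase, was at 1275, 799.7, 725.0, 1371 and 1398 CPM in deficient pools and 670.0 to 1971 CPM in normal pools (median 1358). Its log2 difference was -0.15 (95% interval -0.59 to 0.30), with the lowest value in normal A3 and the highest in normal B2. SQLE, which oxidises squalene, differed by -0.04 (SE 0.22).

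Genes of the same pathways outside the 43 were listed beside them. Of 23 tested other lipid storage genes 11 lay lower and 12 higher, and of 17 other cholesterol genes 10 lay lower and 7 higher, with 0 called in each list. CD36, a fatty acid uptake receptor, had the smallest p of these and lay higher by 0.68 on the log2 scale (SE 0.24, adjusted p = 0.874 by edgeR), with 352 ± 90.5 CPM in deficient pools (SD, n = 5) and 233.5 ± 40.2 in normal pools (SD, n = 6). ELOVL7, a further elongase, lay at 2.64 (SE 1.16) on levels of 4.31 CPM or less, and SCAP, the escort of SREBP, at -1.14 (SE 0.60).

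Marker levels of other cell types were set beside these values. The adipocyte markers, a list of 6 that includes the member PLIN1, summed to 0.309 to 2.07 CPM in deficient pools and 0 to 0.295 CPM in normal pools (exact permutation p = 0.00216, two-sided, the smallest that 462 splits allow, adjusted over 8 library measures 0.0173). Only 5 of the 6 have a row, and 3 of these had no count in any pool. PLIN1 alone gave the summed CPM in all normal pools and in deficient A1, B2 and B4. In deficient A2, with no PLIN1 count, and in A3 the other marker with counts contributed. The 6 theca and stroma markers with a row summed to 3.53 to 7.46 CPM in deficient and 6.62 to 12.4 CPM in normal pools (exact permutation p = 0.00866, adjusted 0.0346). Cumulus and granulosa markers summed to 61.4 to 193 CPM in deficient and 107 to 168 CPM in normal pools (exact permutation p = 0.606). Summed oocyte markers (exact permutation p = 0.626) and blood markers (exact permutation p = 0.799) did not pass either. The part of these levels in the members' differences was not tested.

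In single oocytes no member passed either. edgeR called 0 of 30 tested members between the 4 deficient and 3 normal sums, and percent called over the 11964 genes tested was 0. At an unadjusted p under 0.05 there was 1 member (3.33%), against 1.93% of all genes. In CPM, 1 member had groups that did not overlap (3.33%), against 3.73% of all genes, of which 384 lay higher in deficient sums and 62 lower. DESeq2 and limma-voom called 0 members. Of the 30 members 17 lay lower in deficient sums and 13 higher, with a median log2 difference of -0.08, where 50.3% of all genes lay lower and 49.7% higher. Without deficient sum 2, which holds 2 oocytes, 18 of 32 lay higher and the median was 0.02. With the title number as a block, 2 genes of 12059 passed, both lower in deficient sums and neither a member.

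The member with non-overlapping groups was MSMO1, the methyl oxidase of the sterol ring. It stood at 14.98, 12.09, 7.146 and 11.03 CPM in the deficient sums 1 to 4 and at 5.52, 6.27 and 6.26 CPM in the normal sums 2 to 4. Each deficient sum thus lay above each normal one in CPM. LOC102158401 took a mean of 58.5% of counts in deficient and 64.2% in normal oocytes, which leaves more for other genes in deficient ones. The part of this share in the difference was not tested. Over single cells MSMO1 ranged from 4.52 to 16.3 CPM in deficient oocytes (median 10.3) and 0 to 15.6 CPM in normal oocytes (median 4.79). Its log2 difference was 0.68 (SE 0.41, 95% interval -0.19 to 1.56, edgeR adjusted p = 1). Among oocytes dated 17 September it was 11.6 ± 4.27 CPM in deficient (SD, n = 8) and 6.55 ± 3.95 in normal cells (SD, n = 9). Among those dated 22 September the values were 10.4 ± 3.67 and 5.31 ± 3.58 CPM (SD, n = 6 each), the same direction on both dates. These oocytes are the ones in the sums, so the dates are no separate test.

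SC5D, the desaturase of a late sterol step, had the smallest p. It stood at 11.1, 2.82, 5.10 and 7.23 CPM in deficient sums and 8.70, 9.02 and 14.6 CPM in normal sums. Only deficient sum 1 reached the normal range, and the log2 difference was -0.94 (SE 0.42, 95% interval -1.84 to -0.04, edgeR p = 0.0417, adjusted p = 1). In the pools the same gene lay at 0.42 (SE 0.44), in the other direction. On 17 September deficient oocytes held 10.1 ± 7.45 CPM (SD, n = 8) and normal oocytes 13.5 ± 8.64 (SD, n = 9), and on 22 September 3.19 ± 2.10 and 8.61 ± 3.56 CPM (SD, n = 6 each).

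The 2 members with an unadjusted p under 0.05 in pools, AGPAT1 and NSDHL, did not pass that level in the sums. AGPAT1 was at 8.36, 8.06, 25.7 and 22.8 CPM in deficient sums and 22.5, 8.65 and 18.2 CPM in normal sums, a log2 difference of -0.15 (95% interval -1.02 to 0.72). NSDHL differed by -0.09 (95% interval -0.70 to 0.52) and PPARG by -0.14 (-0.58 to 0.30). Other members low in deficient pools lay on either side of 0 in the sums, with PLIN3 at 0.80 (SE 0.71), LIPE at -0.42 (SE 0.84) and ELOVL1 at -0.32 (SE 0.36). ACACA lay at 0.32 (SE 0.23), HMGCS1 at -0.44 (SE 0.33), ELOVL6 at -0.44 (SE 0.32) and HSD17B7 at -0.26 (SE 0.23). Among other lipid storage genes 10 of 22 lay higher, and among other cholesterol genes 7 of 16, with 0 called in each. FITM2, a droplet-forming protein, had the smallest p of the first list (log2 difference 0.82, SE 0.49), before ELOVL4, an elongase (-0.71, SE 0.47). In the second list these were NPC2, a carrier of sterol out of lysosomes (-0.93, SE 0.55), and LRP8, a lipoprotein receptor (0.80, SE 0.51).

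**Figure D3:**
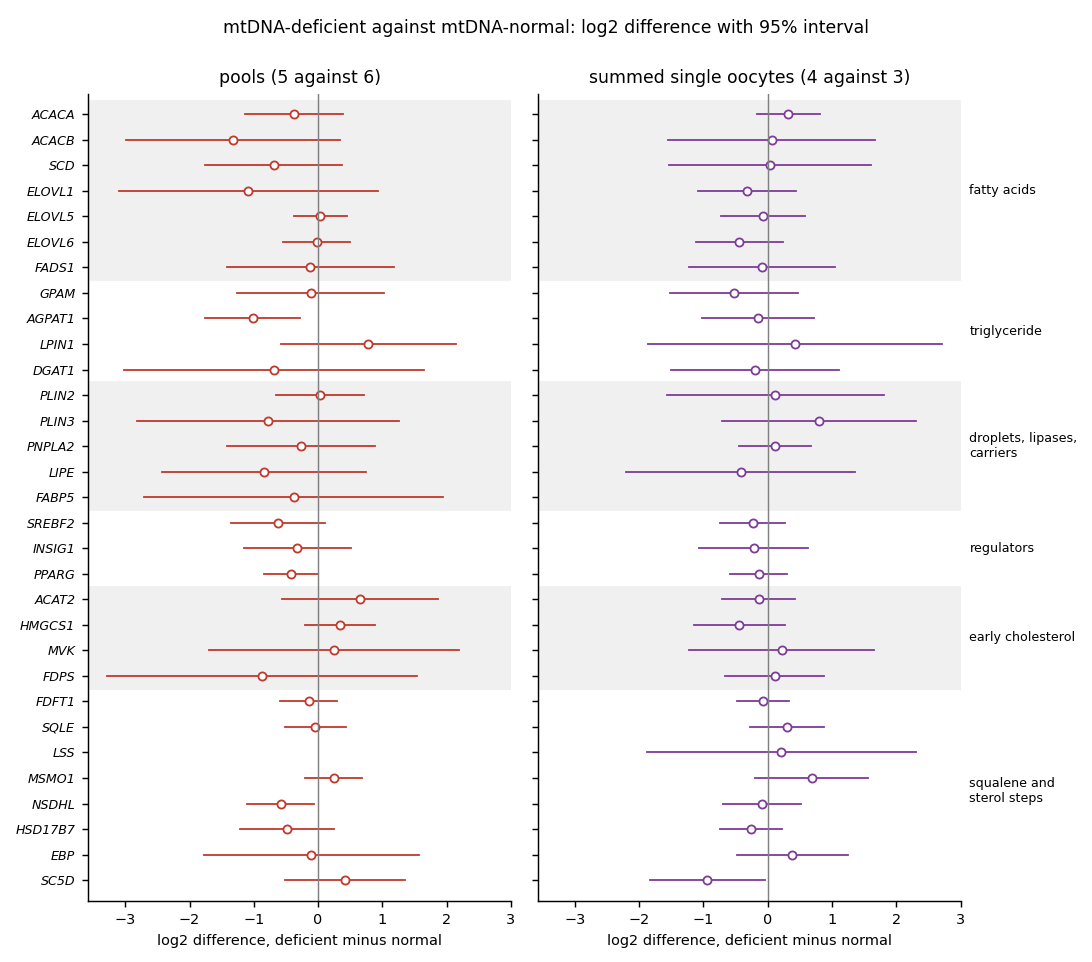
Log2 difference, deficient minus normal (horizontal axes), of each tested member in pools (left, 5 against 6) and in summed single oocytes (right, 4 against 3), with 95% intervals, members on the vertical axis by role. All circles are open because no adjusted p is under 0.05, and only AGPAT1 and NSDHL in pools and SC5D in sums have intervals that leave out 0.

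Whether the state difference itself differed between library types was tested as an interaction over 11 pools and 7 sums. edgeR called 0 of 35 tested members and 0 of 17643 genes, so percent called was 0. At an unadjusted p under 0.05 there were 0 members, against 5.32% of all genes. DESeq2 and limma-voom called 0 members. With DESeq2, 2 of 35 members and 1034 of all 17643 genes had an unadjusted p under 0.05. The members' median interaction was -0.36 on the log2 scale with a median standard error of 0.82, which is larger than most of the pool differences. SC5D had the smallest p (1.40, SE 0.70, 95% interval -0.05 to 2.84, edgeR adjusted p = 0.904), followed by HMGCS1 (0.81, SE 0.42) and LSS (-3.10, SE 1.73). PMVK (-2.65, SE 1.57), AGPAT1 (-0.86, SE 0.61) and ACACA (-0.67, SE 0.52) came next. PMVK passed the filter on low counts in neither library type alone, with 5 counts in normal B1 and none in any other pool. LSS passed it in the sums only, so the values of PMVK and LSS are not read as results.

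The members were then set against the number of genes detected in each pool, which are rows with at least 1 count. In a model with state and the number of genes detected, edgeR called 7 of 30 members higher with more detected genes and 0 lower (23.3%), where percent called over 13540 genes was 8.94 higher and 9.28 lower, or 18.2 in all. Slopes are log2 changes per 1000 detected genes. Members had a median slope of 0.25, and 27 of 30 lay above 0, against a median of 0.036 over all genes, of which 54.6% lay above 0 and 45.4% below. At an unadjusted p under 0.05 there were 15 members (50%), against 32.7% of all genes. The number of genes detected comes from the same libraries as the members' counts. The 2 pools of fewest genes were deficient A2 (14207) and normal A3 (15057), and of 21 members counted in every pool 10 had both of these among their 3 lowest pools and 10 had 1 of them.

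The called members came from all roles except triglyceride assembly. INSIG1 had the smallest p, with 8.36 CPM in deficient A2 and 8.71 in normal A3, and 47.4, 49.2, 49.4 and 56.2 CPM in normal A2, normal B4, deficient B2 and normal B2, the 4 pools of most genes. Among deficient pools each one with more genes held more INSIG1, while normal B1, at 18.8 CPM on 17933 genes, stood apart from its group. The slope was 0.47 (SE 0.079, edgeR adjusted p = 0.00163), a factor of 1.38 per 1000 genes. ACACA rose by a slope of 0.37 (SE 0.074, adjusted p = 0.00344 by edgeR). Its CPM was 57.8 to 72.2 in normal A3, deficient A3 and deficient A2, and 239 to 349 in the 4 pools of most genes. HSD17B7 rose by 0.35 (SE 0.076, edgeR adjusted p = 0.00544), from 53.0 and 40.2 CPM in the 2 pools of fewest genes to 125 to 231 CPM in the 4 of most.

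HMGCS1 rose by 0.24 (SE 0.070, edgeR adjusted p = 0.0263) and PNPLA2 by 0.51 (SE 0.15, adjusted p = 0.0281). EBP, the isomerase of the sterol double bond, rose by 0.86 (SE 0.26, adjusted p = 0.0295), and FDPS by 1.34 (SE 0.45, adjusted p = 0.0481). The last 2 are low genes, EBP at up to 11.3 CPM with no count in normal A3, and FDPS with no count in deficient A2 or normal A3. Members of the same routes did not pass. FDFT1 had a slope of 0.14 (SE 0.053, edgeR adjusted p = 0.0774) and SREBF2 of 0.25 (SE 0.10, adjusted p = 0.0953). MSMO1 lay at 0.03 (95% interval -0.12 to 0.18), NSDHL at 0.04 (-0.12 to 0.20) and PPARG at 0.06 (-0.07 to 0.18). Whether these slopes differ from those of the called members was not tested.

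**Figure D4:**
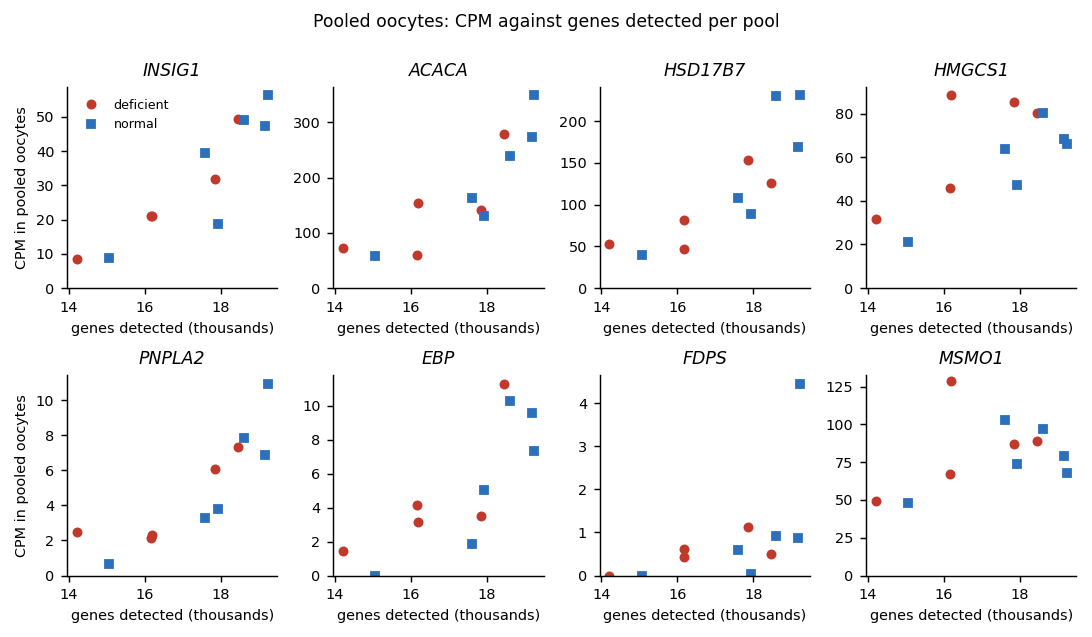
CPM (vertical axes, linear from 0) against the number of genes detected per pool (horizontal axes, divided by 1000) for the 7 members called on this measure and for MSMO1, which was not: red circles, deficient pools; blue squares, normal pools. INSIG1 lies under 10 CPM in the 2 pools of fewest genes and at 47.4 to 56.2 CPM in the 4 of most.

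These calls rested on few pools. Without normal A3 only 2 members and 1033 genes were called, INSIG1 and ACACA keeping their call. Without deficient A1 there were 4 members, without normal B2 4 members and 1534 genes, and without deficient B2 5 members and 1490 genes. Within pools titled A, 1 member and 400 genes were called, and within pools titled B 0 genes and 0 members. In pools titled B 10 of 34 members and 3254 of all 15089 genes had an unadjusted p under 0.05. HMGCS1 had a slope of -0.04 there, and the other 6 kept a positive one, from 0.38 for HSD17B7 to 0.82 for FDPS. The share of counts on the 18S ribosomal RNA gene moved with the number of genes detected over the 11 pools (Pearson r = 0.753, Spearman rho = 0.836, given as a description). With that share as a further covariate 0 genes and 0 members were called, and the median slope of the members was 0.17. An unadjusted p under 0.05 was then found for 7 of 30 members and for 1942 of all 13540 genes.

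Of 16 oocyte markers 15 were tested, and 5 of them rose (BMP15, GDF9, NLRP5, ZAR1 and ZP3) and 1 fell (DAZL). BMP15, a growth factor secreted by the oocyte, had a slope of 0.43 (SE 0.080), ZAR1 of 0.51 (SE 0.085) and NLRP5 of 0.31 (SE 0.085), while DAZL fell by 0.29 per 1000 genes (all edgeR adjusted p under the threshold, 0.0233 for DAZL). Of 23 other lipid storage genes 3 rose and 1 fell. These were NR1H3 (1.75, SE 0.42), GPAT4 (1.14, SE 0.31) and MLXIPL (0.95, SE 0.32), which rose, and PPARGC1A (-0.80, SE 0.27). Of 17 other cholesterol genes 3 rose and 1 fell: NPC2 (1.19, SE 0.21), SCAP (0.51, SE 0.14) and OSBP, an oxysterol binding protein (0.18, SE 0.060), rose, and ABCA1, a cholesterol exporter, fell by 0.23 (SE 0.070).

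The last comparison set the pools against the single-oocyte sums, with state as a covariate. Extraction, kit and pooling all differ between the library types and cannot be told apart. FASN, FABP3, SREBF1 and PMVK passed the filter on low counts in neither type alone, and LSS in the sums only. These 5 entered through the oocytes, where they are higher, so their calls lower in pools follow from the filter and are not read as results. edgeR called 6 of 35 tested members higher in pools and 16 lower, 62.9% in all, where percent called over 17643 genes was 31.9 higher and 35.3 lower, or 67.1 in all. At an unadjusted p under 0.05 the members' count was also 22, against 69.7% of all genes. The members' median log2 difference was -0.62, against -0.17 for all genes. Among the 29 members that passed the filter in both types alone, 6 were called higher (20.7%) and 11 lower (37.9%), with a median of -0.31, against 41.2% higher and 33.2% lower of the 10467 such genes and a median of 0.18. The split depends on scaling: 47.5% of all calls lay higher in pools with TMM, 37.8% with RLE size factors and 57.5% with plain library totals, while the median over all genes moved from -0.17 to -0.65 and 0.32. Members split 6 higher and 16 lower, 4 and 20, and 10 and 13 under these 3 scalings. Under TMM, RLE, plain totals and DESeq2 alike, 4 members were called higher and 13 lower, and 4 and 9 among those 29. The share of all genes called under each of these scalings was not counted, so these numbers have no background beside them.

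The 4 that were higher in pools throughout were MSMO1, PLIN2, HMGCS1 and FDFT1. MSMO1 was at 47.8 to 129 CPM in pools and 0 to 16.3 CPM in single oocytes (median 8.09). In CPM no oocyte reached the lowest pool, but with LOC102158401 left out of the totals 1 of 29 did, at 48.5 CPM against 47.8. The log2 difference was 2.77 (SE 0.21, edgeR adjusted p = 2.45e-11). FDFT1 was at 670.0 to 1971 CPM in pools and 159.5 to 543.7 CPM in oocytes (median 262.2), a log2 difference of 1.61 (SE 0.16). HMGCS1 differed by 1.73 (SE 0.23), from 21.3 to 88.7 CPM in pools and 1.52 to 28.4 CPM in oocytes (median 12.5). With that row left out, 19 oocytes for FDFT1 and 23 for HMGCS1 reached the lowest pool. PLIN2 differed by 2.35 (SE 0.41), with counts in all 11 pools and in 21 of 29 oocytes. HSD17B7 (0.64, SE 0.25) and PPARG (0.39, SE 0.16) passed with TMM but not under all of these scalings, and PPARG lay at -0.10 with RLE size factors.

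The 9 members lower in pools throughout lay at several steps of the same routes. In the early cholesterol pathway ACAT2, MVK and FDPS were lower in pools, so that HMGCS1 stood on the other side of 0 from these neighbours. ACAT2 was at 0.367 to 5.25 CPM in pools and 15.2 to 73.0 CPM in oocytes (median 38.4), with every oocyte above every pool, and the log2 difference was -4.28 (SE 0.34, edgeR adjusted p = 5.57e-11). FDPS was at 0 to 4.43 CPM in pools and 0.995 to 22.6 CPM in oocytes (median 9.90), a difference of -4.26 (SE 0.65). MVK, the mevalonate kinase, differed by -2.89 (SE 0.61). PMVK, the next kinase, had 5 counts in all, in normal B1, over the 11 pools and 63 counts in 17 of 29 oocytes.

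In fatty acid synthesis FASN, the synthase itself, had 39 counts in 5 of 11 pools and 80 counts in 17 of 29 oocytes, too few for a test in either library type alone. ELOVL1 differed by -3.72 (SE 0.56) and FADS1, a desaturase, by -2.13 (SE 0.45). ELOVL5 (-0.25, 95% interval -0.65 to 0.16), ELOVL6 (-0.31, -0.76 to 0.15) and ACACA (0.39, -0.16 to 0.94) did not pass, so the route held called and uncalled genes side by side. Of the droplet and triglyceride genes, PNPLA2 (-2.89, SE 0.34), PLIN3 (-2.73, SE 0.69) and DGAT1 (-3.34, SE 0.71) were lower in pools. PNPLA2 was at 0.642 to 10.9 CPM in pools and 7.17 to 42.6 CPM in oocytes (median 23.6), with only deficient B2, normal B2 and normal B4 inside the oocyte range, and none with LOC102158401 left out of the totals. The regulator SREBF2 was lower in pools (-1.88, SE 0.24). SREBF1 had 68 counts in 8 of 11 pools and 62 counts in 15 of 29 oocytes. INSIG1 lay at 0.39 (95% interval -0.27 to 1.05).

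Among the sterol steps LSS, the cyclase that makes lanosterol, had 153 counts in 8 of 11 pools and 95 counts in 18 of 29 oocytes. NSDHL lay at 0.13 (95% interval -0.33 to 0.58) and SQLE at 0.30 (-0.11 to 0.71). EBP was lower with TMM (-1.54, SE 0.53) but not under every scaling. The same held for AGPAT1 (-1.19, SE 0.31). FABP3, a fatty acid carrier, had 58 counts in 7 pools and 32 counts in 13 oocytes.

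**Figure D5:**
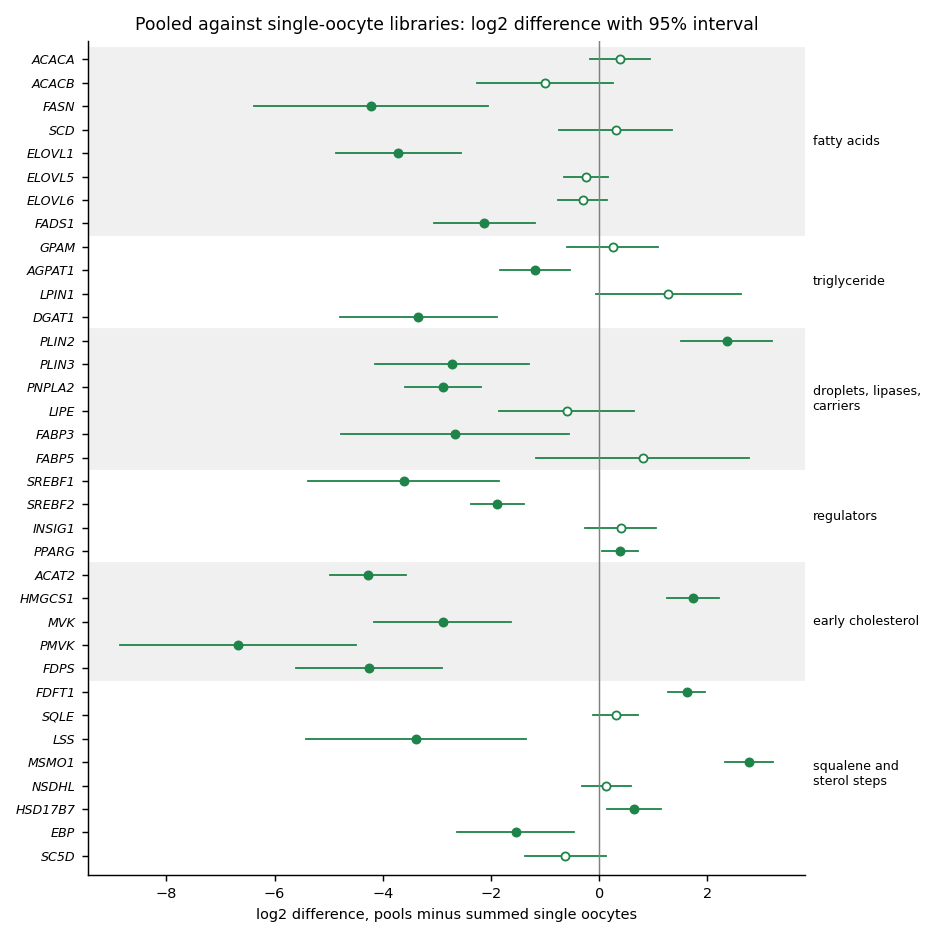
Log2 difference, pools minus summed single oocytes (horizontal axis), of the 35 tested members with 95% intervals, by role (vertical axis): filled circles have an adjusted p under 0.05 with TMM scaling. HMGCS1 lies at 1.73 and its pathway neighbours MVK, FDPS and ACAT2 between -2.89 and -4.28, and FASN, FABP3, SREBF1, PMVK and LSS are drawn although their direction follows from the filter.

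Other genes of these pathways were also called in both directions. Among those that passed the filter in both types alone, 3 of 19 other lipid storage genes were higher and 12 lower in pools, and 5 of 15 other cholesterol genes were higher and 7 lower. AGPAT2, a relative of AGPAT1, had 5 counts in 1 pool and 84 counts in 20 oocytes, and CD36 was higher in pools (2.58, SE 0.21). TM7SF2, a sterol reductase, had 10 counts over all pools and was at 8.38 to 60.9 CPM in oocytes, with counts in all 29. GGPS1, which makes geranylgeranyl diphosphate from the product of FDPS, was higher in pools at 503.4 ± 129.8 CPM (SD, n = 11) against 54.4 ± 18.5 CPM in oocytes (SD, n = 29), a log2 difference of 2.72 (SE 0.21). FITM1, a droplet-forming protein, had no count in any pool and 42 counts over the oocytes, and PPARGC1A, a coactivator of PPARG, had 196 counts over the pools and none in any oocyte. AGPAT2, TM7SF2 and FITM1 could pass the filter only through the oocytes, and PPARGC1A only through the pools. The direction of these genes therefore follows from the filter and is not read as a result.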

How the data were processed

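The series holds 2 deposited tables of raw counts per gene, whole numbers without normalization, with 11 pools and 29 single oocytes of pig metaphase II oocytes. The tools listed in the submitters' processing notes are TopHat2 2.0.14, edgeR, Trim Galore and FastQC, and the build listed is Sscrofa10.2. Which program counted the reads, and on which strand, is not given here, so counts of overlapping antisense genes and near-identical copies are uncertain. Of 38795 rows, 1 names no gene and was left out, with 1.05% to 4.75% of counts in pools and 0.648% to 8.15% in single oocytes. Symbols are those of the tables, 40 of the 41 members matched a RefSeq symbol table of another build (Sscrofa11.1; IDI1 did not), and no coordinates, promoters or sequences were used here.

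In R 4.3.3, edgeR 4.0.16 (quasi-likelihood test, default expression filter, TMM, Benjamini-Hochberg adjustment over all genes tested, threshold 0.05) was fitted to the whole table for state in pools, state in sums, genes detected in pools, and library type and its interaction with state over pools and sums. Standard errors are the log2 difference over the root of F. DESeq2 1.42.0, limma-voom (limma 3.58.1), RLE factors, no filter, leaving out each library, title letters, dates and covariates were alternatives, some added after seeing the data. Library measures were compared by exact permutation over 462 splits. The fits were tested on simulated data. Libraries of a group differed by a chi-square of at least 35.0 per degree of freedom in pools and 4.09 in oocytes, so none was counted as a duplicate. Sums sharing title number 2, 3 or 4 deviated together (r = 0.143, 0.220 and 0.160), so a block on that number, taken from the data and not from the labels, was also fitted.

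The members and lists were chosen with earlier results of these data known. The rule for named genes took, per role, the 3 members of highest mean CPM in each library type. It added, per comparison, the members past the threshold (up to 8 per direction by size) or, with none, the 6 of smallest p, every member without a row, at 0 or under the filter, and of the other lists up to 4 genes past the threshold, or else the 2 with the smallest p. Some further members and list genes were named after their values were seen. MVD and DHCR7 matched no row.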

Additional observations from a re-analysis of the deposited data

Results flagged for a closer look

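Among 92 groups of 4 to 6 values searched, 4 held a value far from the others of its group. Chance alone gives about 1 in 20. In deficient pools, B2 held 2.66 CPM of FABP5, a fatty acid carrier, with 0.662 CPM in the nearest pool, and 11.3 CPM of EBP with 4.15 CPM in the nearest. In normal pools, B2 held 4.43 CPM of FDPS, with 0.918 CPM in the nearest. Among the deficient sums, sum 2 held 3.63 CPM of INSIG1 and the next 19.8 CPM. All 3 pooled genes lie at low CPM. Sum 2 holds 2 oocytes and is the only deficient sum made wholly of oocytes dated 22 September, so title number and date cannot be told apart there.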

How the results depend on the processing

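Of the results that answer a comparison, 277 recomputed values stayed near the main value and 25 did not. For a count, near means within 1.5 times. For a members' median it means a shift below the SD of that median over libraries, whatever its sign. For genes detected by state it means the same direction and side of the threshold. Of the recomputed values of single members, 680 kept direction and side of the threshold, 63 lost their call and 5 reversed. Between pools by state, DESeq2 called 28 genes and no member, and with genes detected as a covariate the members' median was 0.17 and HSD17B7 lay at 0.070. Between sums by state, 2 genes were called by DESeq2, 4 without the filter, 1 with each oocyte as a sample, 1 with the date added, and 2 among oocytes of 17 September, where HSD17B7 lay at 0.089. For the slope on genes detected, leaving out 1 pool gave 1033 to 2832 genes and 2 to 8 members. Pools titled A gave 400 genes and 1 member, those titled B 0 and 0 with HMGCS1 at -0.036, and the 18S covariate 0 and 0. By library type, PPARG lay at -0.10 with DESeq2 and with RLE factors, and without TMM the members' median was -0.10. For the interaction, DESeq2 called 1 gene, no filter 6 and each oocyte as a sample 3. For genes detected and library measures by state, deficient pools differed by -1363.1 genes (exact permutation p = 0.197) and by -771.2 to -1939.2 with 1 pool left out, the last without normal A3 (exact permutation p = 0.0476). The cause of these shifts was not tested.

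Pools share title codes in 4 pairs, whose deviations from the group means correlated at -0.0946 (A2), 0.131 (A3), 0.469 (B2) and 0.0745 (B4). Deficient A3, B2 and B4 each matched the normal pool of their own code best, while deficient A2 matched normal A3 best. Whether the codes pair pools is therefore not settled, and the main fit did not pair them. With the code as a block in these 8 pools, 0 genes were called and the members' median was -0.56, against -0.49 without it. In the sums the block gave 2 genes, as in the report, and it changed no member's call. Low counts left 11 members with a row untested in pools and 11 in the sums.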
